A study of Mus musculus with 18 samples.

Results

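The genes described here are 43 genes of the cell cycle, DNA replication and mitosis, read from 2 expression tables of mouse CD4+ T cells. They were taken by gene symbol from a fixed list, and entries with the same symbol were summed. All 43 were found among the 22783 symbols of experiment 1 and among the 16639 symbols of experiment 2. By role, 14 encode parts of the replication machinery or make nucleotides for it, 22 act in late S phase, G2 or mitosis, and 7 control entry into S phase or its checkpoint. The cells were naive splenic CD4+ T cells of C57BL/6 mice, isolated by cell sorting, stimulated through CD3 and CD28 and collected on day 4. In experiment 1 the WT groups carried Cd4Cre and the tKO groups carried Egln1fl/fl Egln2fl/fl Egln3fl/fl with Cd4Cre. Both genotypes were cultured with 0, 0.2 or 2 ng/ml TGF-b, a cytokine that restrains T cell growth and induces regulatory T cells, and each of the 6 groups had 2 libraries. Cd4Cre is a recombinase driven by Cd4 regulatory sequence and acts during T cell development in the thymus, so the WT cells also carried the recombinase and other T cells of the animal would lose the floxed exons too. Egln1, Egln2 and Egln3 encode the oxygen-sensing prolyl hydroxylases PHD2, PHD1 and PHD3, whose hydroxylation of HIF proteins leads to their breakdown. Experiment 2 used cells of the genotype given as Wildtype, all at 2 ng/ml TGF-b, and set vehicle beside 1 mM DMOG (dimethyloxaloylglycine), an inhibitor of 2-oxoglutarate-dependent dioxygenases that include the PHD proteins. Each of these 2 groups had 3 libraries. Age is not given in the labels, and nothing there says whether the libraries of a group came from separate animals or cultures, so p-values measure the spread between these libraries.

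A dividing cell copies its DNA in S phase and separates the copies in mitosis. Cyclin D with its kinases and cyclin E with Cdk2 release E2F factors, which switch on replication genes. The MCM proteins form the helicase that is loaded at replication origins by Cdc6 and activated with Cdc45 and the GINS complex. Genes for mitosis are switched on later, in G2, through promoters that often hold a CHR element (cell cycle genes homology region) and CCAAT boxes. Naive T cells rest outside the cycle, and activation through CD3 and CD28 drives them through several rapid divisions.

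Promoters are shown first because the 2 main roles differ in these elements. RefSeq windows on GRCm38.p6, from 250 bases before to 50 bases after each start, were matched for 34 of the 43 genes. Both strands were searched for an E2F site (TTTCCCGC, TTTCGCGC, TTTGCCGC or TTTGGCGC), for the CHR (TTTGAA) and for CCAAT. E2F matches can overlap each other, as they do in Mcm5 and Mcm6. An E2F match was present for 5 of 12 replication genes with a window, for 1 of 17 mitosis genes (Cdk1) and for 2.605% of all 27025 genes with windows. A CHR match was present for 2 of 12 replication genes, 12 of 17 mitosis genes and 20.2% of all genes. The 12 mitosis genes with a CHR also held CCAAT, a pair found in 8.0% of all genes. CCAAT, with or without the others, was found in 9 of 12 replication genes, 15 of 17 mitosis genes and 41.1% of all genes. A match is a description of the letters, not a shown binding site. The windows below run from 170 bases before the start to 20 bases from it, 5′ to 3′ along the gene, with matches to any of these motifs in capitals. The replication genes are Mcm5 (chr8:75109339-75109528, plus strand), Mcm6 (chr1:128359686-128359875, minus strand) and Cdc6 (chr11:98907981-98908170, plus strand). The mitosis genes are Cdk1 (chr10:69352893-69353082, minus strand), Ccnb2 (chr9:70421535-70421724, minus strand), Cdc20 (chr4:118437324-118437513, minus strand) and Kif11 (chr19:37376212-37376401, plus strand).
Mcm5: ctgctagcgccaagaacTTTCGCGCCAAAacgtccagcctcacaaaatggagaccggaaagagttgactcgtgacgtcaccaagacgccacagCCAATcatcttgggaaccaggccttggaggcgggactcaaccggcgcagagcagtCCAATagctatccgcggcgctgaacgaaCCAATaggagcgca
Mcm6: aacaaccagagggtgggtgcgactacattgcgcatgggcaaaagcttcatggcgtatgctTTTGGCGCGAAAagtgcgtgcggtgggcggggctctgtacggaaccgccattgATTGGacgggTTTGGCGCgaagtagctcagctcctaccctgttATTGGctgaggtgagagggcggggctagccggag
Cdc6: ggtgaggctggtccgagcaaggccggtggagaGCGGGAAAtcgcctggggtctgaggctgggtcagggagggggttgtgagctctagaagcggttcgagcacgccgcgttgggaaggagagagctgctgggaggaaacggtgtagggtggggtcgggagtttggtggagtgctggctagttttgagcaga
Cdk1: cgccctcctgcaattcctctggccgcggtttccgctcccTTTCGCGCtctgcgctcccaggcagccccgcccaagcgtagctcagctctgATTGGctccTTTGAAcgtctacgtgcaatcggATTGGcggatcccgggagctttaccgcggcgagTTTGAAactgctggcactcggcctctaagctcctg
Ccnb2: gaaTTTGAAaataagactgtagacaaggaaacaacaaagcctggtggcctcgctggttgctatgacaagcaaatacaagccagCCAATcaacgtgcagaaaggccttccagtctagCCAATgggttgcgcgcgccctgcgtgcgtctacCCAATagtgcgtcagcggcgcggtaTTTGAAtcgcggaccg
Cdc20: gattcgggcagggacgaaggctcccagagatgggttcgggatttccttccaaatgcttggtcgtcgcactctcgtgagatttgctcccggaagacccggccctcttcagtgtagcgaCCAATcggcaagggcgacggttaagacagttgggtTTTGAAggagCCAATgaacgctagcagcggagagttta
Kif11: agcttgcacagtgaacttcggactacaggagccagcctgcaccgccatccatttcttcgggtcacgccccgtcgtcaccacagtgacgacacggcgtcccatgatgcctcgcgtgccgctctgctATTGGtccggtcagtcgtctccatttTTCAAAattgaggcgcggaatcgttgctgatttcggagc

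Values are FPKM, fragments scaled to transcript length and to the mapped fragments of the library, so levels are per length. Comparison between genes is approximate, since the level of long against short transcripts varied between libraries, as given below. Fold changes are differences of log2(FPKM + 1) between group means, given ± SE from limma, and a gene is said to rise or fall where its Benjamini-Hochberg adjusted p over all genes tested was under 0.05. All 43 genes passed the filter of a mean of 1 FPKM in both tables, and none was listed at 0 in any library. In bulk RNA, fewer dividing cells and less of these transcripts per dividing cell cannot be told apart. A library's FPKM summed to between 548974 and 856147 in the first table and between 386268 and 443734 in the second, and the number of reads behind a value is unknown. In the libraries labelled tKO, Egln1 lay between 92.8 and 122 FPKM against 20.4 to 44.3 in WT, Egln3 between 77.4 and 140 against 5.68 to 18.7, and Egln2 between 19.9 and 39.0 against 35.6 to 48.8. These whole-gene values do not show which exons were read and so do not check the deletion. The 3 tKO libraries numbered 1 held Y-linked transcripts (60.5 to 67.6 FPKM in sum) and the other 15 libraries held 0.015 or less, so the 2 tKO series differ in this respect. Summed T cell markers (9 of 9 genes) lay between 2576 and 3440 FPKM in WT and between 2040 and 2398 in tKO. B cell markers (7 of 7) summed to between 14.9 and 86.6 FPKM over all 12 libraries with Pax5 at 0.200 or less, and myeloid markers (8 of 8) to 6.03 or less with Lyz2, S100a8 and S100a9 at 0. Long transcripts stood higher relative to short ones in both tKO libraries at 2 ng/ml (by 0.33 and 0.32 log2 units from the mean over libraries) and lower in the replicate 2 libraries of tKO at 0 (-0.35) and 0.2 ng/ml (-0.39). The part of these differences in the results was not tested, other than by the correction for transcript length given beside the results it touches.

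The genes spanned a wide range of levels. In experiment 1 the highest value was 640 FPKM for Ube2c, the ubiquitin-conjugating enzyme of the anaphase-promoting complex, and the lowest was 4.77 FPKM for Cenpf, a kinetochore protein. In experiment 2 the highest was 527 FPKM for Pcna, the clamp that holds DNA polymerase on its template, and the lowest was 3.70 FPKM, again for Cenpf. Averaged over the 14 genes, replication genes in WT stood at 7.16 and 7.08 on the log2(FPKM + 1) scale without TGF-b, 6.78 and 6.91 at 0.2 ng/ml and 6.29 and 6.44 at 2 ng/ml. The 22 mitosis genes in the same libraries averaged 6.23 and 6.19, then 6.09 and 6.13, then 5.63 and 5.83. Both averages were thus lowest at the highest dose in WT, without overlap between doses. In tKO the replication average was 6.97 and 6.72 at 0 ng/ml, 6.76 and 6.48 at 0.2 and 6.64 and 6.73 at 2. The mitosis average in tKO was 5.87 and 5.73 at 0 ng/ml, 5.89 and 5.62 at 0.2 and 5.90 and 5.98 at 2. In tKO the mitosis average at 2 ng/ml lay above both other doses, and the replication values of the doses overlapped.

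**Figure D1:**
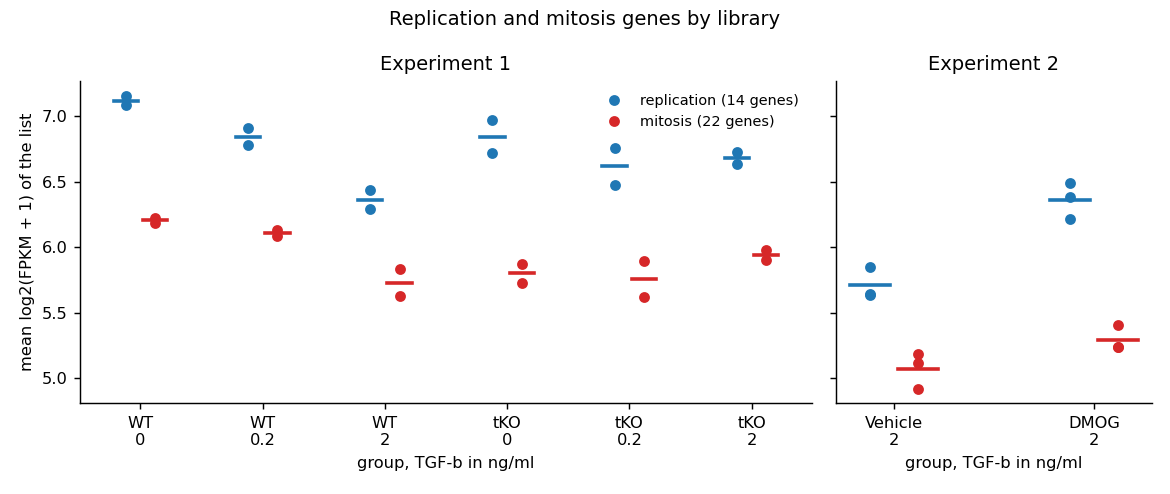
Mean log2(FPKM + 1) of the 14 replication genes (blue) and the 22 mitosis genes (red) in each library (points), with the group mean (lines), by group and TGF-b dose in ng/ml. Both lists step down with dose in WT, from means of 7.12 and 6.21 to 6.36 and 5.73, and the DMOG libraries lie above the vehicle libraries for both lists.

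The first comparison asked what TGF-b does to these genes in WT cells. At 2 against 0 ng/ml, 23 of the 43 genes fell and none rose, and the median fold change was -0.65 against -0.02 over all genes tested. Over all 10354 genes, 15.7% were called, 7.79% higher and 7.91% lower. Of the replication genes 10 of 14 fell, of the mitosis genes 9 of 22 and of the G1/S genes 4 of 7. The summed T cell markers stepped the other way in these WT libraries, from 2576 and 2657 FPKM without TGF-b to 2886 and 3091 at 0.2 ng/ml and 3162 and 3440 at 2 ng/ml, with no overlap between doses. Of the 9 markers Cd3e rose (0.71) and Cd247 fell (-0.57) at 2 against 0 ng/ml. In tKO the marker sum lay between 2040 and 2068 FPKM at 0, between 2194 and 2398 at 0.2 and between 2087 and 2189 at 2 ng/ml. The part of these marker differences in the result was not tested.

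Among replication genes, Cdc6 (chr11:98769116-98785256, the span of the authors' entry on mm9, as for all loci below) was the most reduced. It stood at 32.3 and 28.5 FPKM in WT without TGF-b and at 8.35 and 15.7 at 2 ng/ml. The fold change was -1.32 ± 0.29 (adjusted p = 0.00864). Mcm3 (chr1:20793094-20810294), a helicase subunit, went from 231 and 200 to 100.4 and 98.8 FPKM, a change of -1.10 ± 0.22 (adjusted p = 0.00506). Mcm5 went from 202 and 185 to 95.8 and 112 FPKM, a change of -0.90 ± 0.21 (adjusted p = 0.0105). Cdc45 went from 88.9 and 85.1 to 46.6 and 50.1 FPKM, a change of -0.83 ± 0.17 (adjusted p = 0.00489). In each of these 4 genes, shown for their small p, the doses did not overlap. Mcm2, Mcm4, Rrm1 and Rrm2 (the subunits of ribonucleotide reductase, which makes deoxynucleotides), Tyms (thymidylate synthase) and Tk1 (thymidine kinase) fell by between 0.65 and 0.94. The GINS subunit Gins2 (-0.64, adjusted p = 0.0572), Mcm7 (-0.48), Pcna (-0.47) and Mcm6 (-0.05) did not pass the test. Mcm6 stood at 311 and 281 FPKM without TGF-b and at 245 and 334 with 2 ng/ml, which overlap.

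Among mitosis genes, Plk1 (chr7:129302950-129313389), a kinase that drives mitotic entry and spindle formation, stood at 127 and 128 FPKM without TGF-b. At 2 ng/ml it stood at 73.8 and 65.7 FPKM, a change of -0.86 ± 0.15 (adjusted p = 0.00184). Aurkb (chr11:68858830-68865720), the kinase of the chromosomal passenger complex, went from 161.0 in both libraries to 82.4 and 89.5 FPKM, a change of -0.90 ± 0.17 (adjusted p = 0.00347). Cdc20, an activator of the anaphase-promoting complex, went from 168 and 187 to 96.5 and 106 FPKM (-0.80 ± 0.15, adjusted p = 0.00347). Cdk1, the kinase that starts mitosis, went from 94.9 and 108 to 55.9 in both libraries (-0.85 ± 0.17, adjusted p = 0.00547). In these genes too, every library at 2 ng/ml lay below every library without TGF-b. Aurka, Ccna2 (cyclin A2), Ccnb1 (cyclin B1), Tpx2 (a spindle assembly factor) and Ube2c fell by between 0.65 and 0.79. The other 13 mitosis genes did not pass the test, among them Mki67, the source of the Ki-67 proliferation marker, with 39.8 and 37.7 FPKM without TGF-b and 37.2 and 46.3 at 2 ng/ml. Top2a, the topoisomerase that untangles sister chromosomes, was at 164 and 127 FPKM and at 92.9 and 121 (-0.44, adjusted p = 0.203).

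Of the G1/S genes, Ccnd3 (cyclin D3, chr17:47641899-47748441) had the smallest p. Its libraries held 328 and 319 FPKM without TGF-b, 152 and 193 with 0.2 ng/ml and 150.1 and 149 with 2 ng/ml. The change to 2 ng/ml was -1.11 ± 0.15 (adjusted p = 0.000404). The change to 0.2 ng/ml was -0.91 ± 0.15 (adjusted p = 0.00841), and Ccnd3 was the one gene of the 43 called at the low dose in WT, where 1.59% of all genes were called. That call was lost without either WT library at 0 ng/ml or WT at 0.2 ng/ml replicate 1, and with only the 2 groups compared in the fit. Ccne1 (cyclin E1) went from 72.4 and 87.9 to 42.8 and 40.3 FPKM at 2 ng/ml (-0.92 ± 0.23, adjusted p = 0.0150). Ccnd2 (cyclin D2, -0.69, adjusted p = 0.0271) and E2f1 (-0.77, adjusted p = 0.0469) also fell. Ccne2 (-0.67), E2f2 (-0.35) and the checkpoint kinase Chek1 (-0.38) did not pass.

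Lists of related genes outside the 43 were read in the same fit, where 7.79% of all genes were higher and 7.91% lower. Of 46 other replication genes 19 fell and none rose, led by the DNA ligase Lig1 (-0.97 ± 0.15, adjusted p = 0.00103), the initiation factor Mcm10 (-1.39) and the polymerase subunit Pold2 (-0.99). Of 46 other mitosis genes tested 8 fell, led by separase (Espl1, -1.46), and the condensin subunit Smc4 rose (0.90 ± 0.17, adjusted p = 0.00347). Of 18 G1 kinases, activators and E2F genes tested 4 fell, the transcription factor Mybl2 with the smallest p (-1.41 ± 0.22, adjusted p = 0.000822). Of 20 cell cycle inhibitors tested 6 rose, among them the antiproliferative Btg1 (1.84 ± 0.18) and Btg2 (2.06 ± 0.25) and Ccng2 (1.86 ± 0.23), and 2 fell, Cdkn1a (p21, -1.18) and Ccng1 (-0.84). Of 20 DNA repair genes 4 fell, among them the exonuclease Exo1 (-1.14). Leaving out a library leaves 1 in its group, and the number of calls then fell over all genes as well as in the 43. The median over the 43 was -0.63 without WT at 0 ng/ml replicate 1 and -0.67 without its replicate 2. It was -0.58 without WT at 2 ng/ml replicate 1 and -0.70 without its replicate 2, against -0.65 with all libraries. Cdc20, Plk1, Aurkb and Ccnd3 kept the call under every alternative run, and 15 genes were called without the filter on low values and 15 without the mean-variance trend.

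In tKO cells the same dose of TGF-b gave calls in both directions. At 2 against 0 ng/ml 3 of the 43 genes rose and 6 fell, with a median of -0.05 against -0.01 over all genes. Of all genes 18% were called, 7.59% higher and 10.4% lower, so the counts in the 43 were near the shares over all genes. At 0.2 against 0 ng/ml limma called none of the 43, where 2.48% of all genes were called (1.7% higher). An unadjusted p under 0.05 was found for 6 of the 43 and for 1612 of all 10354 genes. Without tKO at 0.2 ng/ml replicate 1, 2 genes fell at that dose. The genes that rose were mitosis genes: Nusap1 (a spindle microtubule protein, chr2:119435267-119475896), Ccnb2 (cyclin B2, chr9:70255495-70269361) and Mki67. Nusap1 stood at 70.2 and 63.0 FPKM in tKO without TGF-b and at 104 and 110.2 at 2 ng/ml (0.68 ± 0.16, adjusted p = 0.0100). Ccnb2 stood at 85.2 and 94.2 FPKM and at 126 and 132 (0.52 ± 0.15, adjusted p = 0.0286). Mki67 stood at 33.3 and 26.0 FPKM and at 47.3 and 50.2 (0.71 ± 0.19, adjusted p = 0.0212). The groups did not overlap in these genes. The genes that fell were Gins2 (-0.84), Tyms (-0.62), Cdk1 (-0.57), Ube2c (-0.58), Ccnd3 (-0.59) and Ccne1 (-0.77), with adjusted p between 0.0153 and 0.0440. Tyms, Cdk1, Ube2c, Ccnd3 and Ccne1 also fell in WT.

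The calls in tKO were few once a library was left out. Such a fit has 1 library in a group, and the number of calls fell over all genes too. Without tKO at 0 ng/ml replicate 1, 5 of the 43 genes were called, and without any one of the other 3 libraries of the comparison none was. Fold changes in this comparison followed transcript length (Spearman 0.332 across 9250 genes and 0.448 across the 43, which share the libraries). After the correction for length 2 genes rose and 6 fell. After quantile normalization 5 rose and 1 fell. The median of -0.05 over the 43 genes changed sign with the processing. It was 0.16 after quantile normalization, -0.14 after median scaling and -0.10 after the correction for length. It was 0.00 without tKO at 0 ng/ml replicate 1, -0.17 without its replicate 2 and -0.02 without tKO at 2 ng/ml replicate 1.

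Whether the response to 2 ng/ml TGF-b differed between the genotypes was tested directly as tKO change minus WT change. Plk1 and Nusap1 were called, both higher, where 2.97% of all genes were called, 1.55% higher and 1.43% lower. Plk1 stood at 82.4 and 74.9 FPKM in tKO without TGF-b and at 81.8 and 81.5 at 2 ng/ml, against the fall in WT given above. The difference of the changes was 0.92 ± 0.21 (adjusted p = 0.0365). Nusap1 stood at 107 and 111 FPKM in WT without TGF-b and at 84.3 and 92.5 at 2 ng/ml, against the rise in tKO, a difference of 0.98 ± 0.22 (adjusted p = 0.0344). The next smallest p were those of Ccnb2 (0.78, adjusted p = 0.0627) and Mcm3 (1.13, adjusted p = 0.0711), and among G1/S genes that of E2f2 (0.90, adjusted p = 0.162). Over the 43 genes the difference was positive for 41, with a median of 0.60 against -0.02 for all genes, and 20 had an unadjusted p under 0.05. Of all 10354 genes tested, 5038 had a positive difference and 1935 had an unadjusted p under 0.05. Both calls were lost without the mean-variance trend and when any one of 7 of the 8 libraries was left out, and without tKO at 0 ng/ml replicate 1 there were 6 calls. Of the related lists, Lig1 (1.11 ± 0.22) and Mcm10 (1.35 ± 0.33) were called higher in this test and Btg1 (-1.11 ± 0.25) and Gadd45a (-2.54 ± 0.46) lower. With 0.2 ng/ml limma called none of the 43 for a genotype difference, where 0.435% of all genes were called. An unadjusted p under 0.05 was found for 2 of the 43 and for 807 of all 10354 genes.

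**Figure D2:**
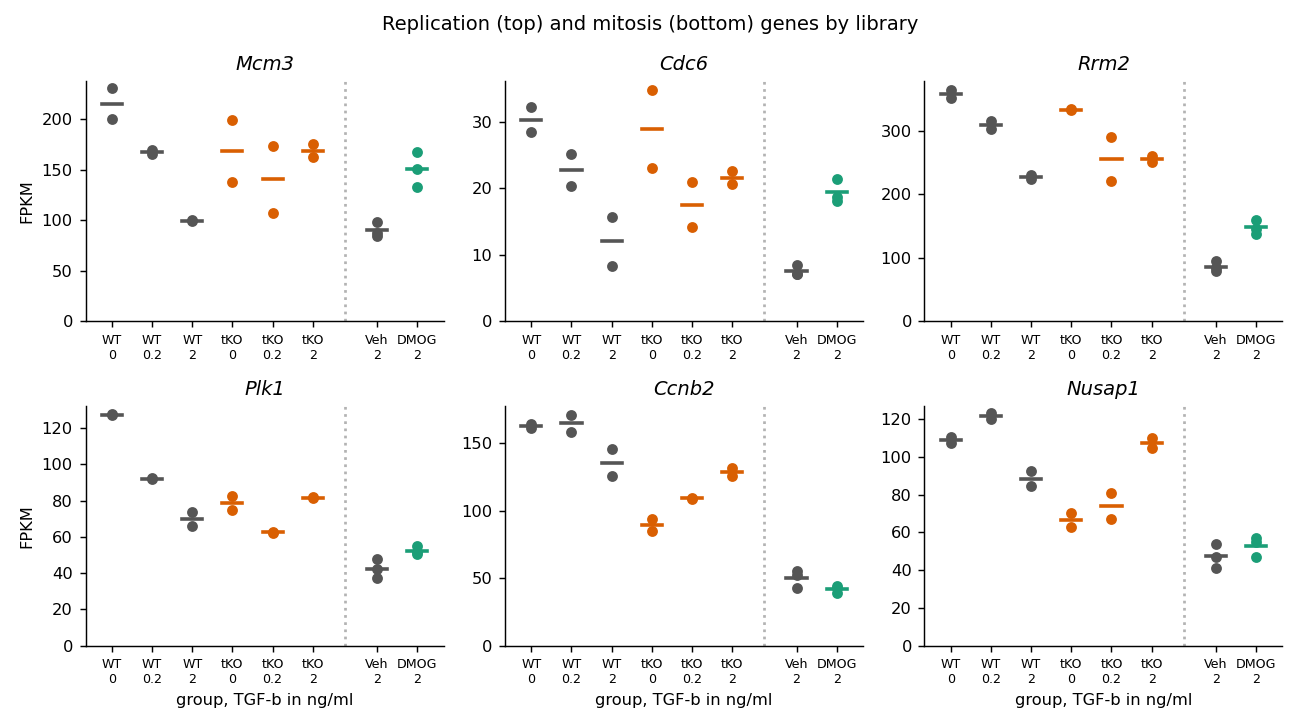
FPKM of 3 replication genes (Mcm3, Cdc6, Rrm2) and 3 mitosis genes (Plk1, Ccnb2, Nusap1) in each library (points) with group means (lines), by group and TGF-b dose in ng/ml; the dotted line separates the experiments. Plk1 falls from 127 FPKM to 69.8 FPKM in the WT means between 0 and 2 ng/ml and stays between 62.5 and 81.7 FPKM in the tKO means.

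The second set of comparisons asked what loss of the PHD proteins does at each dose. These comparisons share WT and tKO libraries with the ones above. Without TGF-b, 6 of the 43 genes were lower in tKO and 1 higher, where 9.64% of all genes were called (4.3% lower and 5.34% higher), and the median was -0.37 against 0.00 for all genes. At 0.2 ng/ml 7 were lower and 2 higher, where 15.5% of all genes were called (6.38% lower and 9.11% higher), and the median was -0.29 against 0.01. Ccna2, Ccnb2, Plk1, Kif11, Nusap1 and E2f2 were lower at both doses. None of the 14 replication genes passed at these doses. Their smallest p belonged to Mcm5 (-0.53, adjusted p = 0.146), Mcm2 (-0.69) and Mcm7 (-0.41) without TGF-b, and to Mcm6 (-0.79, adjusted p = 0.0867), Mcm2 (-0.73) and Mcm7 (-0.55) at 0.2 ng/ml. The cell markers also differed between these groups. Of the 9 T cell markers, 1 was lower in tKO without TGF-b (Cd4, -0.73 ± 0.17, adjusted p = 0.0139). At 0.2 ng/ml 4 were lower, at 2 ng/ml 4 and averaged over the doses 7, and none was higher in any of these. B cell markers summed to 43.4 and 86.6 FPKM in tKO without TGF-b and to 14.9 and 42.0 in WT, which do not overlap, and all 5 of the 7 that could be tested were higher in their mean with none called. The order was the other way at 0.2 ng/ml, where the tKO sums were 16.5 and 26.6 FPKM and the WT sums 36.3 and 62.9. Summed CD8 T cell markers (2 of 2) lay between 13.4 and 14.0 FPKM in tKO and between 4.19 and 6.51 in WT at 0.2 ng/ml, and over the doses between 7.49 and 14.6 and between 4.02 and 8.84. Of this pair only Cd8b1 could be tested, and it was called higher in tKO at 0.2 ng/ml (1.24 ± 0.36, adjusted p = 0.0331) and over the doses (0.77 ± 0.21, adjusted p = 0.0131). The part of these markers in the genotype results was not tested. At 2 ng/ml none of the 43 genes was lower and 6 were higher, where 16% of all genes were called (8.16% lower and 7.82% higher), and the median was 0.28 against -0.02.

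At 0 and 0.2 ng/ml the genes called lower in tKO were mainly mitosis genes. The medians of both roles were below 0, however. Without TGF-b they were -0.38 for replication and -0.38 for mitosis genes, and at 0.2 ng/ml -0.29 and -0.37. Ccnb2 without TGF-b stood at 165 and 162 FPKM in WT and, as given above, at 85.2 and 94.2 in tKO, a difference of -0.86 ± 0.15 (adjusted p = 0.00210). Kif11 (the kinesin that pushes spindle poles apart, chr19:37450892-37496349) differed by -0.95 without TGF-b (adjusted p = 0.0161). With 0.2 ng/ml Kif11 stood at 48.6 and 44.9 FPKM in WT and at 25.7 and 19.9 in tKO (-1.01 ± 0.23, adjusted p = 0.00864). The genotypes did not overlap in these values, while at 2 ng/ml Kif11 was at 29.2 and 46.9 FPKM in WT and at 40.1 and 34.8 in tKO, which overlap. Plk1 differed by -0.69 at 0 ng/ml and by -0.55 at 0.2 ng/ml, Nusap1 by -0.70 and -0.72, and Ccna2 by -0.72 and -0.58. Cdc25c, a phosphatase that activates Cdk1, was lower at 0.2 ng/ml (-0.84 ± 0.24, adjusted p = 0.0318). The spindle checkpoint kinase Bub1b (-0.83 at 0.2 ng/ml) and the kinesin Kif20a (-0.70 and -1.22) did not pass. Aurkb, Aurka and Cdk1 did not pass at these doses, and Cdk1 stood at 113 and 115 FPKM in tKO against 94.9 and 108 in WT without TGF-b.

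Among the 43 genes Ccnd2, a G1/S gene, had the largest difference between the genotypes at each dose. Ccnd2 (chr6:127075177-127162437) without TGF-b stood at 170.5 and 154 FPKM in WT and at 358 and 411 in tKO (1.24 ± 0.19, adjusted p = 0.000957). With 0.2 ng/ml it stood at 140.1 and 139 in WT and at 313 and 438 in tKO (1.40 ± 0.19, adjusted p = 0.000259). At 2 ng/ml it stood at 113 and 88.6 in WT and at 241 and 289 in tKO (1.39 ± 0.19, adjusted p = 0.000334). Ccnd2 was higher in every tKO library than in every WT library at any dose, and its call was kept at each dose under every alternative run. Ccnd3 was higher in tKO at 0.2 ng/ml (0.74 ± 0.15, adjusted p = 0.00534) and 2 ng/ml (0.69 ± 0.15, adjusted p = 0.00815), with 293 and 279.5 FPKM and 243 and 240.3 FPKM in tKO. Without TGF-b Ccnd3 differed by 0.17 (adjusted p = 0.577). E2f2 (chr4:135728290-135751975) went the other way, with 23.1 and 18.2 FPKM in WT and 8.56 and 10.7 in tKO without TGF-b (-1.03 ± 0.23, adjusted p = 0.0119). With 0.2 ng/ml E2f2 differed by -0.94 ± 0.23 (adjusted p = 0.0158) and at 2 ng/ml by -0.13 (adjusted p = 0.747).

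At 2 ng/ml the genes higher in tKO came from all 3 roles: Mcm3, the checkpoint kinase Bub1, Ccnd2, Ccnd3, Ccne2 and E2f1. Ccne2 (cyclin E2, chr4:11118500-11181406) stood at 11.8 and 13.7 FPKM in WT and at 27.2 and 24.9 in tKO (0.98 ± 0.24, adjusted p = 0.0150). E2f1 (chr2:154385358-154395588), an activator of replication genes, stood at 17.8 and 11.8 FPKM in WT and at 26.1 and 26.0 in tKO (0.80 ± 0.24, adjusted p = 0.0392). Mcm3 stood at 162 and 176 FPKM in tKO, above the WT values given above (0.76 ± 0.22, adjusted p = 0.0347). Bub1 stood at 13.9 and 21.8 FPKM in WT and at 29.5 and 34.3 in tKO (0.83 ± 0.24, adjusted p = 0.0334). In these 4 genes the genotypes did not overlap. Cdc6 (0.85, adjusted p = 0.0666) and Mcm4 (0.75, adjusted p = 0.0750) had differences of like size and did not pass, and Ccne1 differed by -0.28 (adjusted p = 0.453).

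Averaged over the doses, 5 genes were higher in tKO (Cdk1, Ccnd2, Ccnd3, Ccne2 and E2f1) and 8 lower (Ccna2, Ccnb2, Plk1, Birc5, Kif11, Nusap1, Ccne1 and E2f2), where 27.2% of all genes were called. In this average the 3 doses of a labelled series entered as separate libraries, although same-numbered tKO libraries deviated together (r between 0.11 and 0.416). With the labelled series as a random term 4 genes were higher and 8 lower, where 22% of all genes were called, and E2f1 lost the call (0.43, adjusted p = 0.0706). Birc5 encodes survivin, a partner of Aurkb. No replication gene passed in this average. Ccnd2 (1.34 ± 0.11, adjusted p = 1e-06), Ccnd3, Ccnb2, Kif11 and E2f2 kept their calls under every alternative. Of 20 inhibitors tested 5 were higher and 4 lower over the doses. Cdkn1a, which encodes the Cdk inhibitor p21, lay at 74.8 FPKM or less in WT and between 191 and 505 in tKO (2.90 ± 0.13, adjusted p = 5.138e-09). Gadd45b (2.14 ± 0.19) and Ccng1 (0.86 ± 0.10) were also higher, while Cdkn2c (p18, -1.07 ± 0.18), Cdkn1c (-1.19 ± 0.23) and Btg2 (-0.64 ± 0.15) were lower. Cdk6, the kinase partner of D cyclins, was higher (0.92 ± 0.17, adjusted p = 0.00117), as was Myc (0.68 ± 0.13, adjusted p = 0.00174). Of 46 other mitosis genes 11 were lower, led by Racgap1 (-0.78), and none higher. Of 46 other replication genes 5 were lower, led by Dbf4 (-0.54), and 2 higher, Orc5 (0.42) and Orc1 (0.63). Both of these counts were below the shares over all genes.

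The genotype counts moved with single libraries. Without TGF-b, the count fell to 2 when WT replicate 1 was left out, to 3 for WT replicate 2, to 3 for tKO replicate 2 and to 6 for tKO replicate 1, and Ccnb2 and Ccnd2 kept the call throughout. At 0.2 ng/ml, leaving out WT replicate 2 gave 2 calls, WT replicate 1 gave 4, tKO replicate 2 gave 5 and tKO replicate 1 gave 21, of which 16 were lower. At 2 ng/ml, 3 were called without either WT replicate and 1 (Ccnd2) without either tKO replicate, and 11 were called after quantile normalization, all higher. The medians moved too. Without TGF-b the median of -0.37 became -0.18 without tKO replicate 2. The median of -0.29 at 0.2 ng/ml became -0.09 when tKO replicate 2 was left out and -0.48 when its replicate 1 was. Over the doses 5 were called without the WT series numbered 2, 7 without the WT series numbered 1, 10 without the tKO series numbered 2 and 17 without the tKO series numbered 1. The replicate 2 tKO libraries at 0 and 0.2 ng/ml are also those with the lowest level of long transcripts. After the correction for length the counts were 1 higher and 6 lower at 0 ng/ml, 2 and 8 at 0.2 ng/ml and 7 and 0 at 2 ng/ml.

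**Figure D3:**
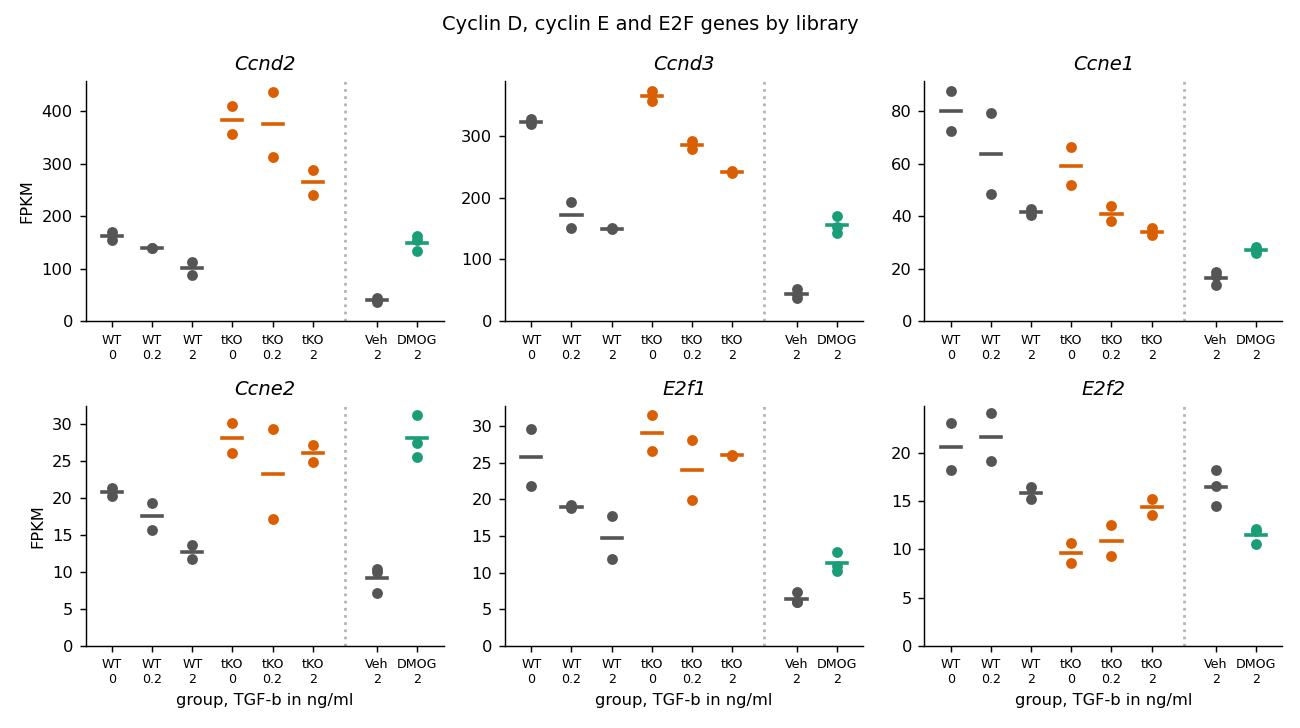
FPKM of the cyclin D, cyclin E and E2F genes in each library (points) with group means (lines), by group and TGF-b dose in ng/ml; the dotted line separates the experiments, which were normalized apart. Ccnd2 lies between 241 and 438 FPKM in tKO and between 88.6 and 170.5 in WT, and E2f2 is lower in tKO at 0 and 0.2 ng/ml and with DMOG.

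In experiment 2, DMOG was compared with vehicle in cells held at 2 ng/ml TGF-b. Of the 43 genes 29 were higher with DMOG and 2 lower, with a median of 0.52 against -0.03 for all genes. After quantile normalization 23 were higher and 2 lower, with a median of 0.35 against 0.02. Of all 9884 genes tested, 60.8% were called, 27.7% higher and 33.2% lower. All 14 replication genes were higher, as were 9 of 22 mitosis genes and 6 of 7 G1/S genes. The 2 lower genes were Cenpf and E2f2.

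Cdc6 stood at 7.08, 7.12 and 8.43 FPKM with vehicle and at 18.1, 18.7 and 21.4 with DMOG (1.26 ± 0.11, adjusted p = 5.289e-08). Cdc45 stood at 19.5, 19.2 and 22.9 FPKM and at 36.2, 37.7 and 41.8 (0.88 ± 0.11, adjusted p = 4.106e-06). Rrm2 stood at 83.7, 78.8 and 94.5 FPKM and at 137, 145 and 160 (0.78 ± 0.11, adjusted p = 1.523e-05). None of these groups overlapped. Mcm3 (0.73), Mcm4 (0.74), Mcm5 (0.60), Mcm2 (0.47), Mcm7 (0.42) and Mcm6 (0.37), and also Rrm1 (0.75), Pcna (0.61), Gins2 (0.59), Tyms (0.59) and Tk1 (0.36), were higher. Mcm6 and Mcm7 lost the call after quantile normalization. Of the libraries left out, Mcm6 lost it without Vehicle replicate 1 or DMOG replicate 3, Mcm7 without DMOG replicate 3, and Tk1 without Vehicle replicate 2, DMOG replicate 2 or DMOG replicate 3.

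Of the mitosis genes, the Aurora kinases had the smallest p. Aurka (chr2:172181691-172207946), which matures centrosomes, stood at 27.1, 25.4 and 28.6 FPKM with vehicle and at 47.2, 53.5 and 51.0 with DMOG (0.88 ± 0.11, adjusted p = 2.38e-06). Aurkb stood at 32.3, 25.3 and 30.4 FPKM and at 47.1, 52.8 and 53.5 (0.79 ± 0.12, adjusted p = 2.095e-05). Bub1 (0.66 ± 0.11) and Cdk1 (0.53 ± 0.11) followed, and Tpx2 (0.53), Top2a (0.52), Ube2c (0.39), Cdc20 (0.34) and Plk1 (0.30) were also higher. Mki67 stood at 52.2, 36.1 and 47.5 FPKM with vehicle and at 47.8, 28.2 and 45.0 with DMOG, which overlap (-0.18 ± 0.17, adjusted p = 0.379). Ccnb1 (0.26, adjusted p = 0.0540), Ccna2 (0.22), Ccnb2 (-0.24), Nusap1 (0.16), Birc5 (0.27), the kinesins Kif11 (-0.01), Kif20a (-0.06) and Kif23 (0.15), Bub1b (-0.11), Cdc25c (-0.10) and the kinetochore motor Cenpe (0.00) did not pass. Cenpf was lower (-0.43 ± 0.15, adjusted p = 0.0202), with 7.51, 6.98 and 7.89 FPKM and 6.80, 3.70 and 5.79. Its call was lost after the correction for length, after quantile normalization, without the filter and without any one of the vehicle libraries or DMOG replicate 2. Plk1 lost its call after that correction and without DMOG replicate 2 or 3 or Vehicle replicate 2 or 3, Cdc20 without DMOG replicate 2 or 3 or Vehicle replicate 2, and Ube2c without Vehicle replicate 2 or DMOG replicate 3. Quantile normalization also ended the calls of Plk1, Cdc20, Ube2c and Top2a, and Ube2c lost its call without the filter.

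The largest differences with DMOG were again in G1/S genes. Ccnd2 stood at 42.9, 36.1 and 39.9 FPKM with vehicle and at 162, 133.5 and 154 with DMOG (1.89 ± 0.12, adjusted p = 2.765e-10). Ccnd3 stood at 52.0, 37.2 and 43.1 FPKM and at 171, 143 and 152 (1.80 ± 0.13, adjusted p = 1.948e-09). Ccne2 stood at 7.09, 9.91 and 10.3 FPKM and at 27.4, 25.5 and 31.3 (1.53 ± 0.13, adjusted p = 3.102e-08). In none of these genes did the groups overlap. Chek1, with 4.27, 5.04 and 6.29 FPKM against 9.64, 10.9 and 11.6, was higher by 0.93 ± 0.13 (adjusted p = 7.423e-06). E2f1 (0.73 ± 0.12) and Ccne1 (0.70 ± 0.12) were higher too. E2f2 stood at 18.3, 14.5 and 16.5 FPKM with vehicle and at 11.9, 10.5 and 12.1 with DMOG (-0.48 ± 0.12, adjusted p = 0.00190).

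The wider lists in experiment 2 gave 36 of 46 other replication genes higher and none lower, with the origin recognition subunits Orc1 (1.46 ± 0.11) and Orc6 (1.08 ± 0.11) and the hemimethyl-DNA reader Uhrf1 (1.25 ± 0.13) having the smallest p. Of 48 other mitosis genes 15 were higher, led by the kinase Melk (1.06 ± 0.11), and 6 lower, led by Smc4 (-0.66 ± 0.13). Of 18 G1 genes tested 9 were higher and 2 lower. Cdk6 stood at 0.818, 0.864 and 1.03 FPKM with vehicle and at 10.8, 8.58 and 12.0 with DMOG (2.58 ± 0.12, adjusted p = 6.442e-12), and Myc differed by 1.20 ± 0.11. Of 21 DNA repair genes 13 were higher, among them the checkpoint kinase Atr (1.21 ± 0.11), and none lower. Of 19 inhibitors tested 5 were higher and 9 lower. Over all genes tested 27.7% were higher and 33.2% lower, and the higher calls among the other mitosis genes and the inhibitors were near that share. Cdkn1a stood at 8.39, 6.93 and 8.00 FPKM with vehicle and at 192, 152 and 160 with DMOG (4.26 ± 0.12, adjusted p = 1.108e-14). Btg2 (-2.25 ± 0.13), Rbl2 (-1.39 ± 0.11) and Gadd45a (-1.55 ± 0.13) were lower. In the same libraries, summed T cell markers lay between 2238 and 2584 FPKM with vehicle and between 1097 and 1409 with DMOG. B cell markers summed to between 7.62 and 12.4 FPKM and between 0.936 and 1.32, and myeloid markers (5 of 8 in the table) to between 6.97 and 7.30 and between 0.119 and 0.344. Itgam made up most of the myeloid sum with vehicle, at 6.59 to 7.07 FPKM. Of the 9 T cell markers 8 were called lower with DMOG and none higher. Of the CD8 T cell markers Cd8a was higher (1.25 ± 0.12, adjusted p = 1.431e-07) and Cd8b1 did not pass (-0.22). Klrd1, the 1 NK cell marker that could be tested, was lower (-1.62 ± 0.13). The part of these differences in the results was not tested.

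**Figure D4:**
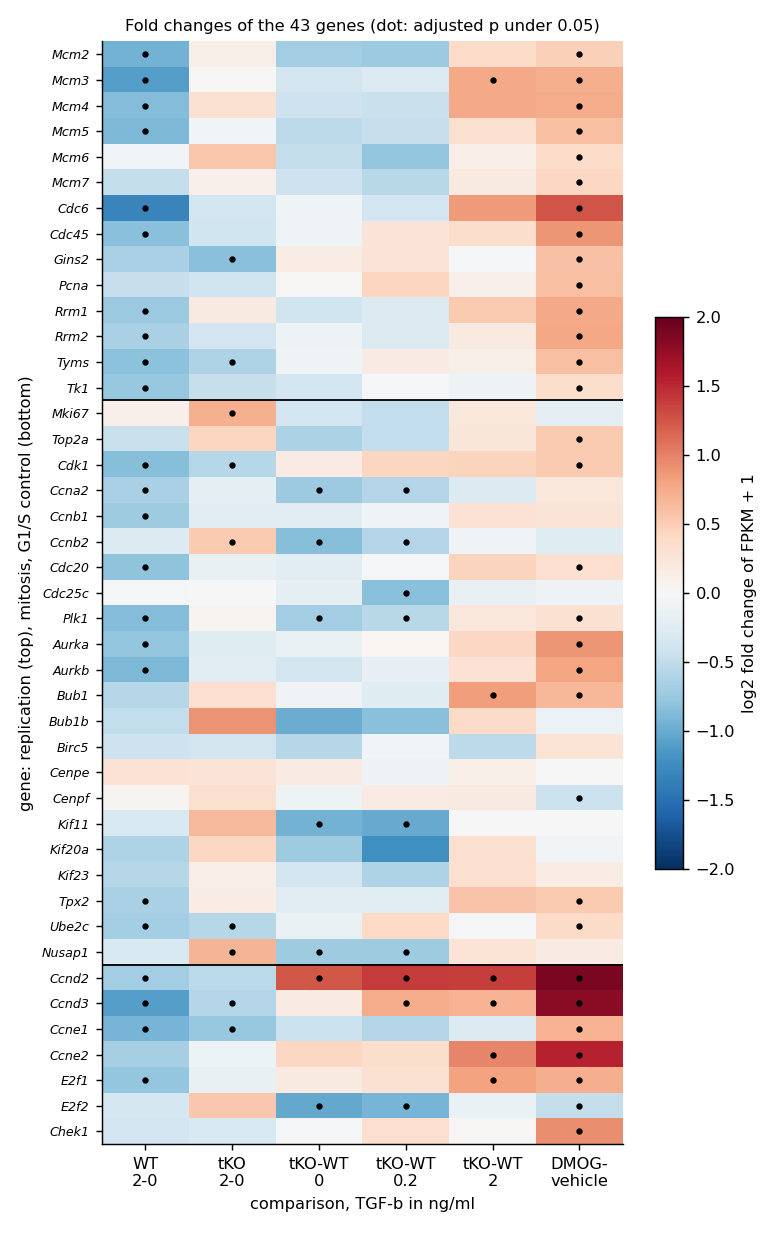
Log2 fold changes of FPKM + 1 for the 43 genes (rows; replication, mitosis and G1/S control from top to bottom) in 6 comparisons (columns, TGF-b in ng/ml), red for higher and blue for lower, with a dot where the adjusted p was under 0.05. The first 5 columns share libraries. WT at 2 against 0 ng/ml has 23 dots, all lower, and DMOG against vehicle has 31, of which 29 are higher.

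Replication and mitosis genes were then set against each other within each library, as a description with no test. The mean of the replication genes minus the mean of the mitosis genes was 0.932 and 0.894 log2 units in WT without TGF-b, 0.696 and 0.772 at 0.2 ng/ml and 0.658 and 0.606 at 2 ng/ml. In tKO it was 1.10 and 0.988, then 0.868 and 0.859, then 0.737 and 0.752. The gap narrowed with each step of dose in both genotypes without overlap between doses, and at each dose both tKO libraries lay above both WT libraries. Group means ± SD (n = 2) were 0.913 ± 0.027, 0.734 ± 0.054 and 0.632 ± 0.037 in WT and 1.04 ± 0.076, 0.863 ± 0.0063 and 0.744 ± 0.011 in tKO. In experiment 2 the gap was 0.519, 0.725 and 0.668 with vehicle and 0.976, 1.15 and 1.08 with DMOG. The DMOG mean was 1.07 ± 0.087 against 0.637 ± 0.106 (SD, n = 3), and the groups did not overlap.

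The same contrast taken from medians of the fold changes gave like values for dose and for DMOG and other values for genotype. The median fold change of replication genes minus that of mitosis genes was -0.22 for WT at 2 against 0 ng/ml, -0.36 for tKO at 2 against 0 ng/ml and 0.37 for DMOG. With DMOG the medians were 0.60 for replication genes and 0.24 for mitosis genes. For tKO against WT the difference of medians was -0.01 at 0 ng/ml, 0.07 at 0.2 ng/ml and -0.02 at 2 ng/ml, while the difference of means was 0.13, 0.13 and 0.11, so that mean and median differ in sign at 0 and 2 ng/ml. With 0.2 ng/ml the difference of medians was -0.06 after quantile normalization, -0.04 after the correction for length and -0.12 without tKO at 0.2 ng/ml replicate 1. For tKO at 2 against 0 ng/ml it was -0.01 after quantile normalization and -0.20 after the correction for length.

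The experiments share no library, so calls can be set side by side. The 6 genes higher in tKO at 2 ng/ml (Mcm3, Bub1, Ccnd2, Ccnd3, Ccne2 and E2f1) were 6 of the 29 genes higher with DMOG at the same dose. Of the 23 genes that fell with 2 ng/ml TGF-b in WT, 21 were among those 29, and the 2 others were Ccna2 and Ccnb1. In experiment 2, 60.8% of all genes were called and 27.7% were higher. As 29 of the 43 genes were higher with DMOG, most of any subset of the 43 could be among them. The overlap over all genes is not given here, so these overlaps stand as counts and were not tested. Over the 11 comparisons 39 of the 43 genes were called at least once, and Bub1b, Cenpe, Kif20a and Kif23 (a kinesin of the dividing cell's midbody) were called in none.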

How the data were processed

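Per the labels' protocols, RNeasy kits gave the RNA and the SMARTer Ultra low input chemistry gave the libraries. That kind of kit does not mark strand, so reads of overlapping antisense genes cannot be told apart. Trimmomatic, TopHat, Cufflinks and Cuffdiff appear in the submitters' processing notes, with mm9 as the build and without versions. The authors deposited FPKM per library, per the file headers, in a table for each experiment. The tables hold FPKM alone, which a count model cannot take, and depth is unknown. Exact duplicates (18 and 291 entries) were dropped and entries of a symbol were summed, for 5 and 11 of the 43 genes; 8483 entries of experiment 1 without a symbol were left out. Genes averaging 1 FPKM or more (10354 and 9884) were fitted on log2(FPKM + 1), a scale that understates changes of low genes, with limma 3.58.1 in R 4.3.3, 1 coefficient per group, trended variances and all libraries of a table in 1 fit. P-values are two-sided, adjusted by Benjamini-Hochberg over all genes, with a threshold of 0.05. The fit was tested on simulated data. Tables were normalized separately and tested apart.

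Full values are given for the up to 4 genes with the smallest p per role and comparison and for a fixed set of index genes. Groups of genes chosen by p tend not to overlap because of that choice, so this is a description and no added support. Up to 3 called genes in each direction are named per related list. Mcm6, Kif11 and Cenpf are given beyond this in 1 comparison each, and were chosen after their values were seen. The members, lists and tests were chosen with earlier results of these data known. Alternatives were a pseudocount of 0.1, no filter, quantile normalization, median scaling, no trend, a replicate block, the labelled series as a random term, only the 2 groups compared, means in place of medians over the lists, each library left out in turn, and a correction for transcript length (GENCODE M21 lengths) chosen after seeing the data. Promoter windows are RefSeq's, on GRCm38.p6, a build other than that of the FPKM tables.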

Additional observations from a re-analysis of the deposited data

Results flagged for a closer look

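By limma's test of the difference itself, the response to 2 ng/ml TGF-b was called different between the genotypes for 2 of the 43 genes. These were Plk1 (0.92, tKO change minus WT change) and Nusap1 (0.98). Over all genes 2.97% were called, 1.55% higher and 1.43% lower. Both calls were lost without the mean-variance trend and in most fits with a single library left out, as given above. Among the related genes the same test called Mcm10 (1.35) and Lig1 (1.11) higher and Btg1 (-1.11) and Gadd45a (-2.54) lower. Gadd45a, a stress-induced growth arrest gene, went from 2.35 and 3.27 to 10.6 and 12.6 FPKM in WT and from 7.27 and 8.78 to 6.22 and 2.61 FPKM in tKO. Lig1 went from 85.1 and 90.5 to 43.6 and 45.2 FPKM in WT and from 68.0 and 59.1 to 69.9 and 70.2 FPKM in tKO. Groups of 2 or 3 libraries are too small to look for single libraries that stand apart by a fixed rule.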

How the results depend on the processing

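Of 101 calls over the 43 genes and 11 comparisons, 36 were kept under every alternative, 65 were lost under 1 or more, 22 of these only when libraries were left out, and no called value changed sign. For 0.2 ng/ml in tKO against WT, fitting only the 2 groups compared left 1 call of 9, and for 0.2 against 0 ng/ml in WT it left 0 of 1. Without the trend the counts were 3 of 6 for tKO against WT at 2 ng/ml, 15 of 23 for WT at 2 against 0, 3 of 9 for tKO at 2 against 0 and 0 of 2 for the genotype difference at 2 ng/ml. Without the filter they were 15 for WT at 2 against 0 and 5 for tKO at 2 against 0. Quantile normalization gave 11 for tKO against WT at 2 ng/ml and 6 for the genotype difference, for which median scaling gave 1, the labelled series as a random term 4 and the replicate block 4. At 0.2 ng/ml quantile normalization called 1 gene higher and 11 lower in tKO, against 2 and 7. The share of all genes called moved with these settings too. For tKO against WT at 2 ng/ml it was 16% in the main fit, 18.1% after quantile normalization and 13.8% without the trend. The cause of these shifts was not tested.

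Same-numbered libraries deviated together at r between 0.057 and 0.186 across the WT doses and between 0.11 and 0.416 across the tKO doses. The r lay between -0.106 and 0.255 across genotypes and between -0.194 and 0.443 in experiment 2. The main fit did not pair libraries by number. Only the tKO libraries numbered 1 held Y-linked transcripts, so the tKO number went with a trait shared across doses. With the labelled series as a random term, tKO at 2 against 0 ng/ml gave 4 genes higher and 7 lower, against 3 and 6. In that fit the genotype difference at 2 ng/ml gave 4 calls, against 2. The replicate block ended none of the 101 calls and added 9.

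With each library left out in turn, calls ranged from 2 to 6 for tKO against WT at 0 ng/ml, 2 to 21 at 0.2, and 1 to 3 at 2. Over the doses a whole labelled series of 3 libraries was left out at a time, which gave 5 to 17 calls, and leaving out only tKO at 0.2 ng/ml replicate 2 gave 13. They ranged from 0 to 1 and 7 to 13 for 0.2 and 2 against 0 ng/ml in WT, 0 to 2 and 0 to 5 in tKO, 0 to 0 and 0 to 6 for the genotype difference at 0.2 and 2 ng/ml, and 25 to 34 for DMOG. The difference of medians between replication and mitosis genes ranged from -0.0088 to 0.1348, -0.1176 to 0.081, and -0.0193 to 0.0653 for tKO against WT at 0, 0.2 and 2 ng/ml. Over the doses it ranged from 0.0525 to 0.2077 with a whole series left out and was 0.1275 without only tKO at 0.2 ng/ml replicate 2. It ranged from -0.2723 to -0.154 and -0.3347 to -0.1836 for 0.2 and 2 against 0 ng/ml in WT, and -0.363 to -0.0062 and -0.4175 to -0.2217 in tKO. For the genotype difference it ranged from -0.2383 to 0.0352 at 0.2 ng/ml, changing sign without tKO at 0 ng/ml replicate 1 (0.0187), WT at 0 ng/ml replicate 2 (0.0352) or tKO at 0.2 ng/ml replicate 2 (0.0051). At 2 ng/ml it ranged from -0.1947 to 0.0748, changing sign without tKO at 0 ng/ml replicate 1 (0.0748), WT at 0 ng/ml replicate 2 (0.0433) or WT at 2 ng/ml replicate 2 (0.0432). For DMOG it ranged from 0.3036 to 0.4302.

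As a difference of means in place of medians, the same contrast was 0.129, 0.1293, 0.1124 and 0.1236 for tKO against WT at 0, 0.2 and 2 ng/ml and over the doses. It was -0.1788 and -0.281 for 0.2 and 2 against 0 ng/ml in WT, -0.2977 for 2 against 0 in tKO, and 0.0003 and -0.0166 for the genotype differences. After quantile normalization the difference of medians was -0.1157, -0.0567, 0.0235 and 0.1276 for tKO against WT, -0.1707 and -0.1756 in WT, -0.0102 for 2 against 0 in tKO and 0.0263 for the genotype difference at 2 ng/ml. After the correction for length the difference of medians was -0.0418 for tKO against WT at 0.2 ng/ml, -0.1986 for tKO at 2 against 0 and -0.1348 for the genotype difference at 2 ng/ml. Differences under the spread of 2 libraries per group were not detectable here.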
